A study of Populus deltoides with 12 samples.

Results

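Purple leaves of QHP were compared with green leaves of ZSY across all genes, using 6 of the 12 RNA-seq libraries of a study on leaf color in *Populus deltoides*. P stands for purple leaves of QHP ('Quanhong'), and F_G for green leaves of ZSY ('Zhongshanyuan'), with 3 libraries each from independent biological replicates. The other 6 libraries, purple leaves of ZSY (F_P) and green leaves of L2025 (G), served for a second comparison of purple with green leaves. All plants were field-grown seedlings of the same age labelled as wild type. The study describes the QHP leaves as the fourth and the fifth fully expanded ones and the ZSY leaves only as fully expanded. P and F_G differ in leaf color and in cultivar, and these cannot be told apart in this comparison.

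Anthocyanins, the pigments of many purple leaves, are built from phenylalanine through the phenylpropanoid and flavonoid pathways. Chalcone synthase (CHS) makes the first flavonoid skeleton, flavanone 3-hydroxylase (F3H) gives dihydroflavonols, and the hydroxylases F3'H and F3'5'H set the number of hydroxyl groups on the B ring. From there dihydroflavonol reductase (DFR) gives leucoanthocyanidins, anthocyanidin synthase (ANS) gives the colored anthocyanidins, and glycosyltransferases (UFGT) stabilize them with a sugar, while flavonol synthase (FLS) draws dihydroflavonols into flavonols. In many plants these genes are switched on by complexes of R2R3-MYB, bHLH and WD40 proteins.

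The qRT-PCR primers of 5 genes on which the results turn are shown, since the study used them to measure these genes. They were copied from the study's primer list in lower case, 5′ to 3′, and no genome was used here to place them.
PdeCHS2 forward: ccctgactactactttcgcatc
PdeCHS2 reverse: tcctcagtcaagtgcatgtatc
PdeF3'H1 forward: gtgacccaaaggcagatgaa
PdeF3'H1 reverse: cccagcaccgaatggtataag
PdeF3H2 forward: accttcttctcgtacccaattc
PdeF3H2 reverse: tctcaatgtccttgctcatctt
PdeANS3 forward: ctccaccagaccctcttaaatc
PdeANS3 reverse: accacccacaagaacctaac
PdeMYB2 forward: cggagaaggcaaatggagaa
PdeMYB2 reverse: cgtctatggctgttgagatgag

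Expression was deposited as FPKM, a fragment count scaled by transcript length and library depth. The P libraries held 16017796 to 16622388 fragments on annotated genes and the F_G libraries 14543579 to 15858408. Across genes, the correlation of log2(FPKM + 1) was 0.99 to 0.992 between P replicates and 0.982 to 0.985 between F_G replicates, so F_G varied more. In the study's sequencing statistics, each F_G library had a smaller share of mapped reads than each P library. The smallest share in the series was that of F_G replicate 3. The summed FPKM was 627966 to 634039 in P and 699644 to 719141 in F_G. Of these sums, 4.83% to 4.94% in P and 6.63% to 6.75% in F_G came from the top 10 genes. As a check of the labelled tissue, the 23 listed genes of light-harvesting antenna proteins, which bind chlorophyll in leaves, summed to 6131 to 6557 FPKM in P and 9340 to 10910 FPKM in F_G.

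A gene was called when its adjusted p (limma, Benjamini-Hochberg) was at most 0.05 and its absolute log2 fold change at least 1. Fold changes are P minus F_G on log2(FPKM + 1), which understates the change of weakly expressed genes. Of 25813 genes tested, 966 were called higher (3.74%) and 2287 lower (8.86%) in P, together 3253 (12.6%). Falls thus made up 70.3% of the calls, or 56.7% when each library was divided by its FPKM total, which moved the median log2 fold change of all genes to 0.15, against 0.0023 with the deposited values. For 14674 genes (56.8%) the P and F_G libraries did not overlap, and 3233 of the called genes were among them. Calls of lower expression were most frequent among genes with a mean under 10 FPKM, of which 11.5% were lower and 4.17% higher in P. Of the tested genes, 964 had passed the filter on low values through F_G alone, with no P library at 1 FPKM, and 272 through P alone, so that the filter set the direction of their difference. Among the other 24577 genes, 3.36% were called higher and 6.55% lower in P.

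Among the enzyme genes of the anthocyanin pathway, P leaves had more transcript of 4 CHS genes, of 1 F3'H, of 1 FLS and of 2 ANS genes, and less of 2 F3H genes and of single ANS, UFGT, F3'H and F3'5'H genes. The study's table names 37 such structural genes. It chose them on all 4 groups of leaves, so their direction is not independent evidence. Of these, 31 passed the filter on low values, of which 8 were called higher and 6 lower in P, with a median log2 fold change of −0.30, against 3.74% and 8.86% of all genes tested. Of the 6 falls, 3 were of genes that passed the filter through F_G alone, so that the filter set their direction (*PdeF3H3*, *PdeF3'5'H1* and *PdeANS6*). The FPKM of the list summed to 1864 to 2082 in P and 872 to 916 in F_G. CHS genes alone made up 47.5% to 50.0% of this sum in P and 28.5% to 29.4% in F_G.

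*PdeCHS2* (Podel.14G153100) was the most expressed of the structural genes in all 6 libraries. It had 705, 810 and 829 FPKM in P, against 167, 183 and 181 FPKM in F_G. The groups did not overlap, and the log2 fold change was 2.13 ± 0.08 (SE, n = 3 each, adjusted p = 1.95e-06). *PdeCHS1* (Podel.14G152900) lies 6.16 kb from it on chromosome 14 and had 51.4, 78.4 and 73.6 FPKM in P, against 29.5, 22.7 and 24.6 FPKM in F_G. Its log2 fold change was 1.36 ± 0.16 (SE). If these neighbours are alike in sequence, reads may have been split between them in the authors' counting. Their likeness was not measured here, so their separate values are uncertain. *PdeCHS6* (1.37 ± 0.13) and *PdeCHS3* (1.28 ± 0.08) rose as well. *PdeCHS4* was higher in every P library, with 38.0, 44.1 and 41.4 FPKM in P against 20.5, 22.5 and 19.7 FPKM in F_G, but its log2 fold change of 0.94 ± 0.09 (SE) missed the minimum of 1. *PdeCHS5* was below 1 FPKM in all 6 libraries and was not tested.

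The hydroxylase genes did not move as a block. *PdeF3H2* (Podel.05G127100, chromosome 5), the F3H gene with the highest expression, had 40.6, 46.9 and 42.8 FPKM in P, against 121.6, 118.2 and 119.3 FPKM in F_G. All P libraries were below all F_G libraries, with a log2 fold change of −1.44 ± 0.07 (SE, adjusted p = 5.22e-06). The study's qRT-PCR of *PdeF3H2*, which set P against G and F_P against F_G, gave higher values in P and in F_P. Its mean FPKM went the other way in both pairs, at 43.4 in P and 74.0 in G. In ZSY it was 29.6 in F_P and 119.7 in F_G. *PdeF3H3*, which passed the filter through F_G alone, also fell (−1.34 ± 0.23), at 0.358 FPKM in P and 2.53 FPKM in F_G. *PdeF3H1* (−0.30 ± 0.18) overlapped between the groups, and *PdeF3H4* (−0.80 ± 0.22) was lower in every P library without being called.

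*PdeF3'H1* (Podel.13G079600), whose product adds the hydroxyl group that cyanidin carries, had 382, 444 and 439.8 FPKM in P, against 133, 129.8 and 145 FPKM in F_G. It was the second most expressed structural gene in P, and its log2 fold change was 1.63 ± 0.08 (SE, adjusted p = 5.67e-06). *PdeF3'H2* went the other way, with 7.85, 8.69 and 8.41 FPKM in P and 25.8, 24.4 and 21.9 FPKM in F_G (−1.42 ± 0.10). The study's pathway table places this gene under brassinosteroid biosynthesis rather than flavonoid biosynthesis. *PdeF3'5'H1*, of the family that leads to delphinidin, had 0.188, 0.244 and 0.316 FPKM in P, against 1.93, 3.47 and 2.07 FPKM in F_G, and fell by 1.46 on the log2 scale (SE 0.21). It passed the filter through F_G alone. *PdeF3'5'H2* was at 3.65 ± 1.33 FPKM in P and 5.62 ± 0.31 FPKM in F_G (SD, n = 3 each), a difference that did not pass the test (limma adjusted p = 0.0562).

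At the branch to flavonols, *PdeFLS2* (Podel.04G144800) had 114, 117 and 116 FPKM in P, against 18.3, 17.3 and 16.9 FPKM in F_G. With a log2 fold change of 2.66 ± 0.06 (SE, adjusted p = 4.29e-07), it was among the most clearly separated structural genes. *PdeFLS4* was lower in every P library (17.8, 14.3 and 16.5 FPKM in P, 30.7, 34.99 and 31.8 FPKM in F_G), with a log2 fold change of −0.96 ± 0.10 that just missed the minimum. *PdeFLS3* (0.81 ± 0.18) was low in both groups.

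The late genes of the pathway were divided. *PdeDFR* (Podel.01G063100) had 29.2, 24.6 and 26.8 FPKM in P, against 16.6, 18.02 and 13.8 FPKM in F_G. It was higher in every P library (adjusted p = 0.00155), but by 0.71 ± 0.11 (SE) on the log2 scale and so was not called. *PdeANS3* (Podel.15G029700) had 61.8, 53.6 and 59.5 FPKM in P, against 5.96, 10.3 and 9.03 FPKM in F_G, a log2 fold change of 2.68 ± 0.17 (SE, adjusted p = 1.82e-05). *PdeANS4* rose too (1.35 ± 0.21), whereas *PdeANS6* fell to 0.645, 0.628 and 0.740 FPKM in P, against 6.60, 3.19 and 3.04 FPKM in F_G (−1.60 ± 0.25). *PdeANS6* passed the filter through F_G alone. *PdeANS1* (−0.69 ± 0.22) and *PdeANS5* (−0.74 ± 0.13) were lower in every P library without being called, and *PdeANS2* overlapped. The names are those of the study. Its tables place none of the 6 ANS genes (0) in the flavonoid map, and 2 of them, *PdeANS3* and *PdeANS6*, under gene ontology terms for glycosyl or hexosyl transfer, as they do *PdeFLS4*. They place *PdeDFR* under plant hormone signal transduction only.

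Of the 8 tested UFGT genes, whose products attach the sugar, 1 was called (12.5%, against 12.6% of all genes tested). In every P library 2 were higher and 5 lower, against 28% and 28.8% of all genes tested. The median log2 fold change of the UFGT genes was −0.49. The 2 most expressed were *PdeUFGT5*, with 130, 138 and 125 FPKM in P and 69.2, 80.9 and 76.8 FPKM in F_G, and *PdeUFGT9*, with 117, 129 and 127 FPKM in P and 81.0, 79.6 and 92.1 FPKM in F_G. Both were higher in every P library, but their log2 fold changes of 0.79 ± 0.08 and 0.56 ± 0.08 (SE) were below the minimum. These neighbours are 1.12 kb apart on chromosome 7, where *PdeFLS3*, *PdeFLS4* and *PdeUFGT11* lie within the same 145 kb. *PdeUFGT11* was the only UFGT gene called, with 0.573, 1.76 and 1.38 FPKM in P against 4.03, 2.61 and 8.75 FPKM in F_G (−1.37 ± 0.37). The call was lost without P replicate 1 (adjusted p = 0.0605) and without F_G replicate 3 (log2 fold change −0.97). *PdeUFGT10* had 15.1, 16.6 and 17.4 FPKM in P against 29.8, 34.9 and 31.1 FPKM in F_G (−0.92 ± 0.09, adjusted p = 0.000147). *PdeUFGT6* (−0.59), *PdeUFGT8* (−0.56) and *PdeUFGT1* (−0.41) were lower in every P library too, without being called. *PdeUFGT4* was at 29.1 ± 2.0 FPKM in P and 26.6 ± 2.3 FPKM in F_G (SD, n = 3 each) and overlapped between the groups.

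**Figure D1:**
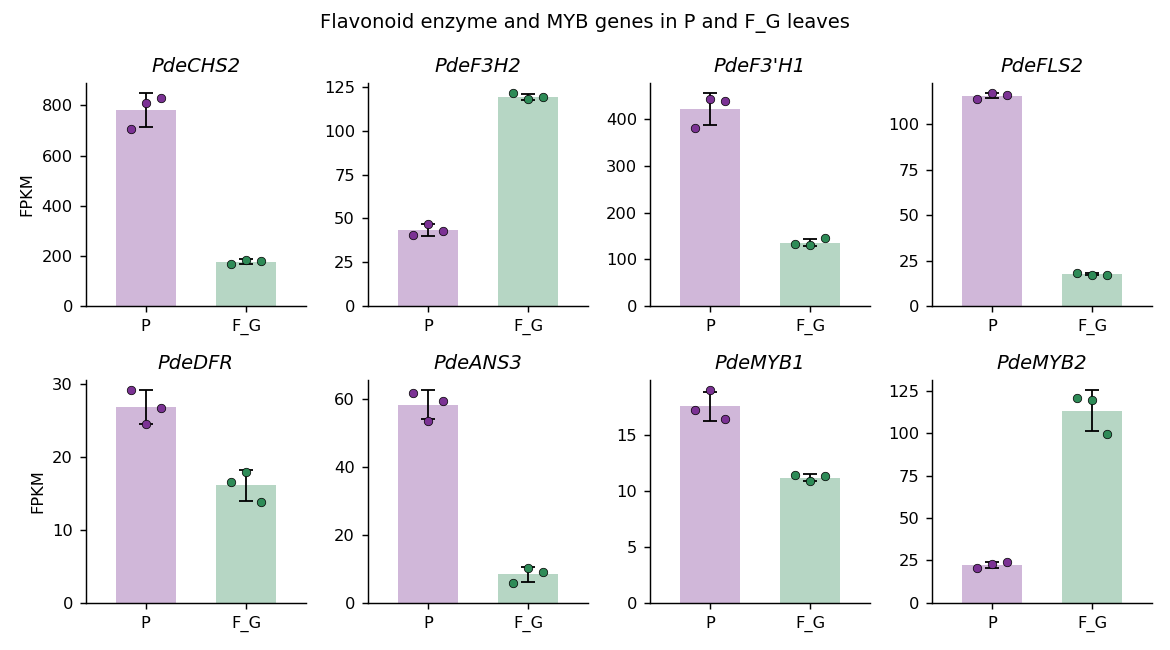
FPKM of 6 enzyme genes and the MYB genes PdeMYB1 and PdeMYB2 in P (purple) and F_G (green) leaves; points are libraries, bars the mean and error bars the SD (n = 3 each). PdeCHS2, PdeF3'H1, PdeFLS2, PdeDFR, PdeANS3 and PdeMYB1 were higher in every P library, PdeF3H2 and PdeMYB2 lower in every P library.

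**Figure D2:**
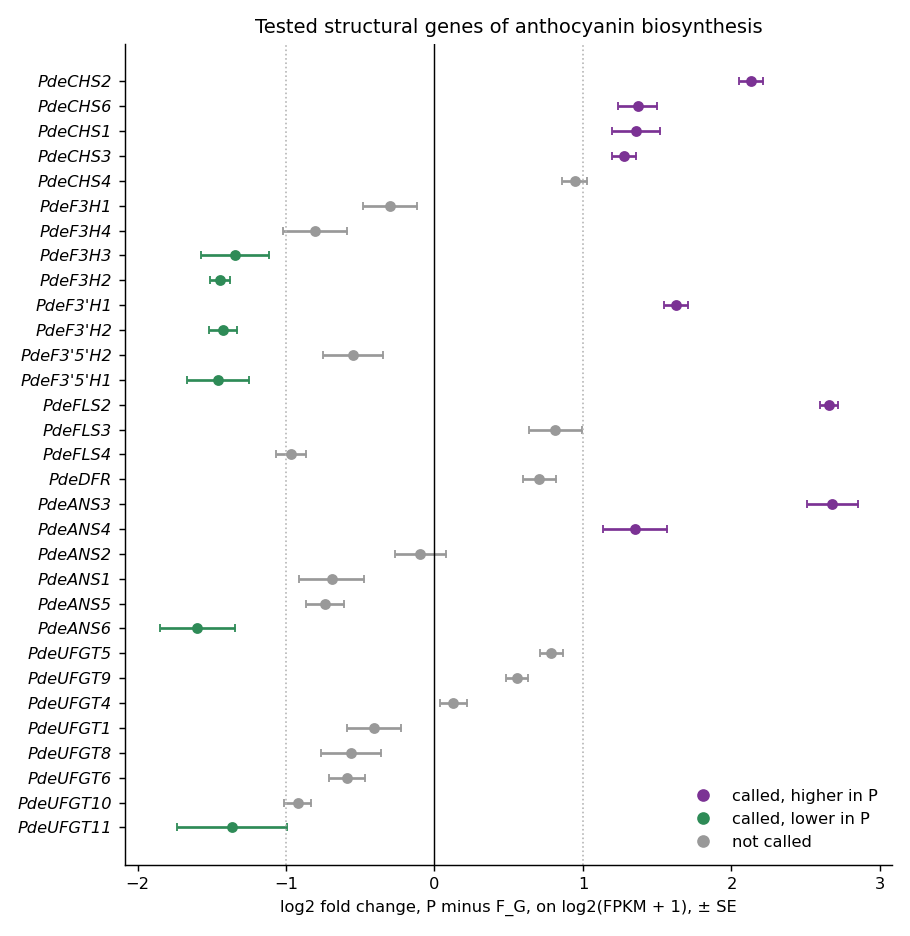
Log2 fold change (P minus F_G, on log2(FPKM + 1), ± SE) of the 31 structural genes tested, in pathway order; purple points were called higher and green points lower in P, gray points were not called, and dotted lines mark the minimum of 1. CHS holds 4 of the 8 rises, ANS shows 2 rises and 1 fall, and F3H shows 2 of the 6 falls.

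The MYB genes that the study assigned to subgroup 5, a group known in *Arabidopsis* for the proanthocyanidin regulator TT2, differed in opposite directions. *PdeMYB2* (Podel.06G234300, chromosome 6) had 20.3, 23.0 and 23.9 FPKM in P, against 120.8, 119.6 and 99.3 FPKM in F_G. It fell by 2.28 on the log2 scale (SE 0.10, adjusted p = 3.56e-06). *PdeMYB1* (Podel.04G021100, chromosome 4) had 17.3, 19.04 and 16.4 FPKM in P, against 11.4, 10.9 and 11.3 FPKM in F_G. It was higher in every P library by 0.60 ± 0.09 (SE), below the minimum for a call.

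The study's supplementary network of MYB genes and anthocyanins lists 11 MYB genes, among them both of subgroup 5. Of these 11 genes, 1 was called higher and 5 lower in P, against 3.74% and 8.86% of all genes tested. Podel.14G127200 rose, with 18.8, 19.2 and 19.2 FPKM in P against 2.03, 1.89 and 2.07 FPKM in F_G (2.75 ± 0.10). Podel.09G121500 had the deepest fall of these MYB genes, with 13.98, 12.5 and 7.65 FPKM in P against 102, 108 and 95.6 FPKM in F_G (−3.09 ± 0.19). The other falls were Podel.02G040700 (−1.54 ± 0.10), Podel.06G106200 (−1.47 ± 0.20) and Podel.02G205100 (−1.04 ± 0.17), besides *PdeMYB2*. The call of Podel.02G205100 was lost without P replicate 2 or F_G replicate 2, at log2 fold changes of −0.91 and −0.93.

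A like network lists bHLH genes with anthocyanins. Of its 11 genes, 2 were called higher and 6 lower in P, again beside 3.74% and 8.86% of all genes, and 1 of the falls was of a gene that passed the filter through F_G alone (Podel.07G028600). Podel.01G333900 had 9.19, 9.54 and 10.6 FPKM in P, against 1.03, 0.668 and 0.608 FPKM in F_G (2.61 ± 0.15), and Podel.15G110700 had 36.3, 37.9 and 34.6 FPKM in P, against 6.88, 6.46 and 7.44 FPKM in F_G (2.23 ± 0.09). These were the 2 rises, both well outside the spread between replicates. The 6 falls ran from −2.36 ± 0.17 for Podel.03G099000 to −1.50 ± 0.12 for Podel.04G160100. Between them lay Podel.07G028600 (−2.23 ± 0.16), Podel.05G135800 (−2.13 ± 0.20), Podel.T132400 (−2.0 ± 0.18) and Podel.09G122300 (−1.80 ± 0.12). The study chose both network lists on these libraries among others, so the counts describe the genes and are not independent evidence. The study's text counts fewer genes of both kinds and describes them as positively correlated with anthocyanins.

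F_P and G form a second pair of purple and green leaves that shares no library with P and F_G, and here again the cultivars differ. Between replicates, the correlation of log2(FPKM + 1) was 0.993 in F_P and 0.983 to 0.99 in G. In F_P vs. G, 8912 of 26633 genes tested were called (33.5%), 3587 higher (13.5%) and 5325 lower (20%) in F_P, and for 20009 (75.1%) the libraries of the pair did not overlap. Of the 907 genes called higher in P and tested in both pairs, 371 (40.9%) were also higher in F_P vs. G, which was 10.8% of the 3429 rises there, and 72 (7.94%) were lower. Of the 2094 genes called lower in P, 1223 (58.4%) were also lower in F_P vs. G, which was 29.5% of the 4149 falls there, and 256 (12.2%) were higher. The test of the difference between the pairs, in a fit of all 12 libraries, called 8504 of 28339 genes (30%).

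Several of the genes described above moved alike in both pairs. *PdeANS3* had a log2 fold change of 2.29 in F_P vs. G, *PdeF3'H1* of 1.86 and *PdeCHS2* of 2.95, while *PdeF3H2* fell by 1.30 and *PdeMYB2* by 1.84 there. In the test of the difference between the pairs none of these was called, though *PdeCHS2* differed by −0.82 (adjusted p = 1.96e-05). *PdeFLS2* was different, with a log2 fold change of 2.66 in P vs. F_G and −0.71 in F_P vs. G (difference 3.37 ± 0.08 SE, adjusted p = 4.81e-11). *PdeFLS4* was at −0.96 in P vs. F_G, lower in every P library but not called, and at 3.25 in F_P vs. G (difference −4.21). *PdeMYB1* was higher in both pairs, by 0.60 in P vs. F_G and by 2.61 in F_P vs. G (difference −2.004). Among the network genes, Podel.02G040700 fell by 1.54 in P vs. F_G but rose by 1.80 in F_P vs. G (difference −3.34 ± 0.13 SE). The falls of Podel.09G121500, Podel.03G099000 and Podel.04G160100 were smaller in P vs. F_G than in F_P vs. G, by 3.65, 3.49 and 3.39 on the log2 scale.

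**Figure D3:**
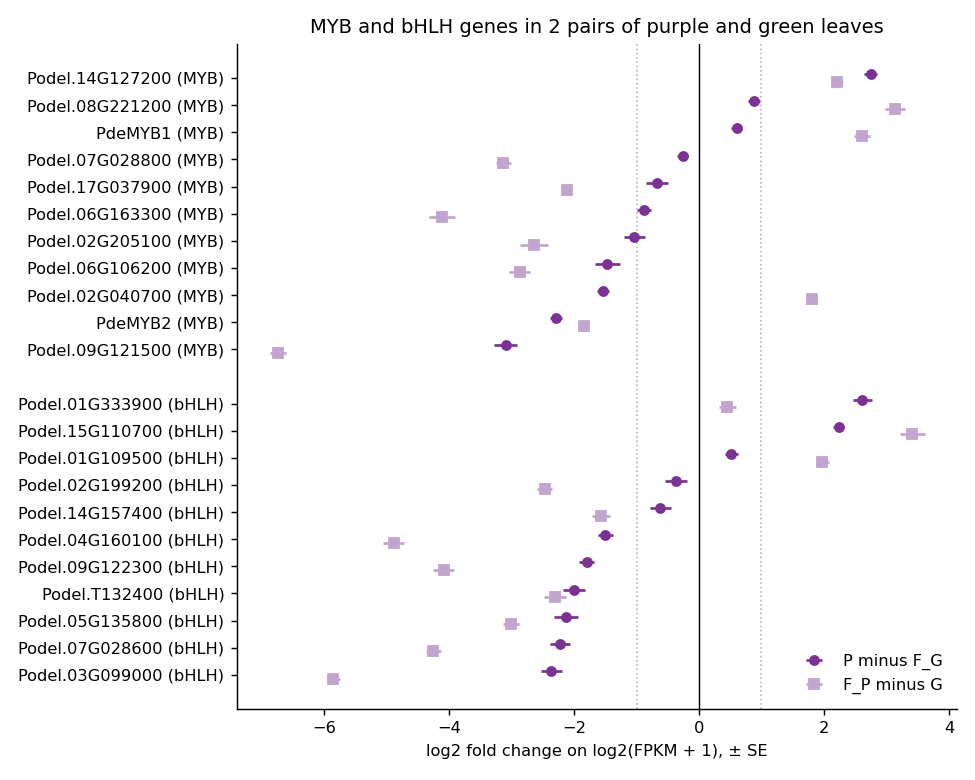
Log2 fold change on log2(FPKM + 1), ± SE, of the 11 MYB and 11 bHLH network genes in P minus F_G (dark circles) and F_P minus G (light squares); dotted lines mark the minimum of 1. Podel.02G040700 is the gene called in opposite directions, and Podel.09G121500 shows the deepest fall in both pairs.

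Beyond the structural genes, the flavonoid biosynthesis map of the KEGG database was split between rises and falls. This and the following lists hold genes that the study had called in F_P vs. F_G or P vs. G, so each was chosen with libraries used here and its counts are a description. Of 33 listed flavonoid genes 29 were tested, of which 9 (31%) were called higher and 11 (37.9%) lower in P, against 3.74% and 8.86% of all genes. Of these calls 2 rises and 4 falls were of genes that passed the filter through 1 group alone. Among the 20 that are not in the structural list, 4 rose and 9 fell. Podel.13G027300 had 292, 301 and 308 FPKM in P, against 9.52, 12.2 and 9.35 FPKM in F_G, a log2 fold change of 4.74 ± 0.10 (SE, adjusted p = 3.37e-07). Podel.19G001400, which passed the filter through P alone, had 31.7, 30.5 and 29.4 FPKM in P and 0.741, 0.494 and 0.0411 FPKM in F_G (4.50 ± 0.19). These rises exceeded that of any gene in the structural list. The deepest falls were Podel.02G036000, with 10.97, 7.67 and 9.12 FPKM in P against 74.5, 65.3 and 64.4 FPKM in F_G, and Podel.04G031200, with 25.6, 25.6 and 27.4 FPKM in P against 153, 144 and 128 FPKM in F_G.

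Phenylalanine metabolism, which feeds the phenylpropanoid pathway, had 3 rises (13%) and 1 fall (4.35%, below the 8.86% of all genes) among 23 tested genes, or 2 falls without P replicate 1. Podel.08G046700, which is also on the phenylpropanoid map, had 259, 256 and 249.6 FPKM in P against 122, 124 and 131 FPKM in F_G, a log2 fold change of 1.01 ± 0.06 that came to 0.99 without F_G replicate 1. Podel.11G111800 (1.29 ± 0.14) rose and Podel.16G132900 (−1.83 ± 0.11) fell. The list on circadian rhythm had 9 rises (52.9%, against 3.74% of all genes) and no falls (0) among 17 tested genes, with a median log2 fold change of 1.06. Of these 9 rises, 4 were the CHS genes, which KEGG also draws on this map and which make flavonoids. Among the other 5, Podel.18G029700, annotated by the study as a DNA-binding transcription factor, had 70.9, 79.9 and 74.6 FPKM in P against 19.3, 12.9 and 15.9 FPKM in F_G (2.18 ± 0.13).

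The listed genes of light capture were mostly lower in P, though few passed the minimum fold change. All 23 antenna protein genes had been called by the study in P vs. G. The same P libraries thus chose them, and their direction is not independent evidence. Of the 23 antenna protein genes, 19 were lower in every P library and 1 was higher in every P library, against 28.8% lower and 28% higher without overlap among all genes. Of these, 4 falls (17.4%) and 1 rise (4.35%) were called, against 8.86% and 3.74% of all genes, with a median log2 fold change of −0.64. With libraries scaled to their FPKM totals, 1 of the falls was called. Podel.14G181400 had 165, 199 and 184 FPKM in P against 390.3, 399 and 571 FPKM in F_G (−1.29 ± 0.15), and Podel.11G123800 had 73.3, 63.1 and 69.9 FPKM in P against 132, 164 and 170.4 FPKM in F_G (−1.16 ± 0.11). The single rise, Podel.05G274900 (1.01 ± 0.08), lost its call without P replicate 1, P replicate 3 or F_G replicate 1, at 0.95 to 0.99. Porphyrin and chlorophyll metabolism, in which chlorophyll is made and degraded, had 5 rises (16.7%, against 3.74% of all genes) and no falls (0) among 30 tested, while 25 genes were not called. Of the 30 genes, 14 were higher and 5 lower in every P library, against 28% and 28.8% of all genes. The median log2 fold change of the list was 0.26, and it had 1 fall without P replicate 2 or F_G replicate 2. Podel.04G222600 had 78.4, 77.2 and 80.4 FPKM in P against 31.0, 28.6 and 27.9 FPKM in F_G (1.40 ± 0.07), and Podel.06G052600 had 63.3, 64.9 and 63.4 FPKM in P against 29.1, 30.7 and 29.1 FPKM in F_G (1.08 ± 0.06). Carotenoid biosynthesis had 2 rises (12.5%), among them Podel.09G160400 (1.34 ± 0.10), and 4 falls (25%), among them Podel.19G097900 (−1.35 ± 0.11), in 16 tested genes, and without P replicate 3 or F_G replicate 3 it had 1 rise. Of the 4 falls, 1 was of a gene that passed the filter through F_G alone.

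**Figure D4:**
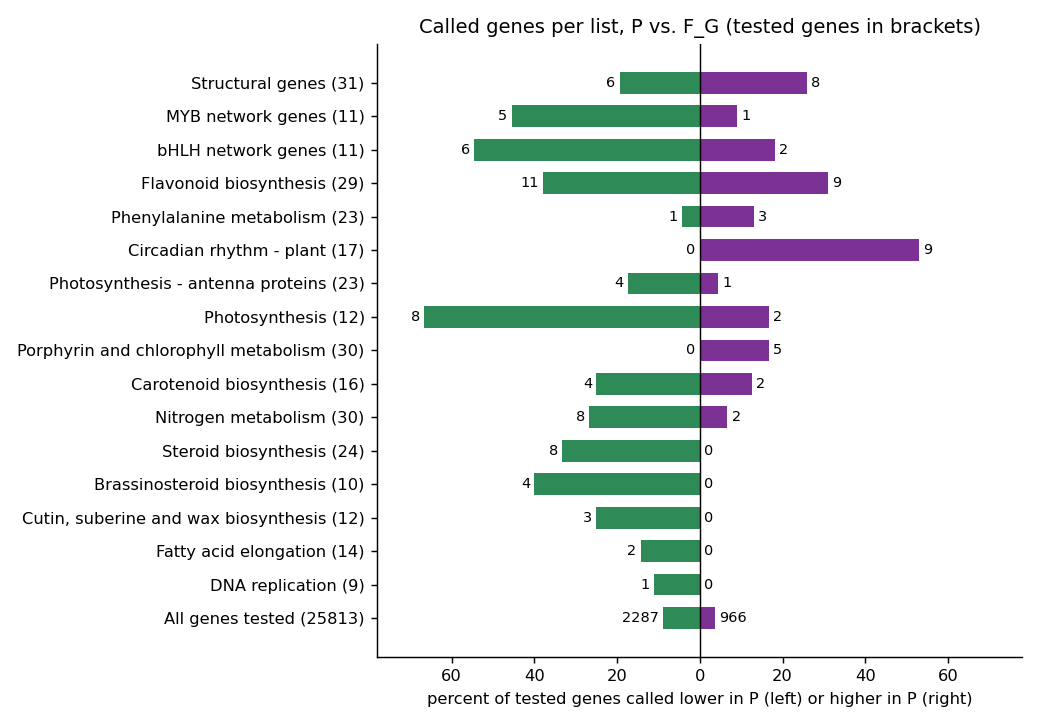
Percent of tested genes called lower in P (green, to the left) or higher in P (purple, to the right) per list, with the number of called genes at each bar and of tested genes in brackets; the lowest bars show all genes tested. The circadian list had 9 rises and no falls, the photosynthesis list 2 rises and 8 falls, and the steroid list no rises and 8 falls.

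Nitrogen metabolism, through which leaves fix ammonium into amino acids, had 8 falls (26.7%) and 2 rises (6.67%) among 30 tested genes, against 8.86% and 3.74% of all genes. Of these falls 1 was of a gene that passed the filter through F_G alone. The deepest fall with a mean of at least 10 FPKM was Podel.01G371500, with 154, 176 and 169 FPKM in P against 1411, 1416 and 1492 FPKM in F_G (−3.10 ± 0.07, adjusted p = 3.49e-07). This gene and Podel.04G093000 (−1.43 in log2 fold change) held 46.3% to 47.3% of the summed FPKM of the list in P and 75.9% to 76.9% in F_G. Podel.13G061800 fell (−2.20 ± 0.08) and Podel.02G096300 rose (1.12 ± 0.09). Steroid biosynthesis, which supplies sterols and the precursors of brassinosteroid hormones, had 8 falls (33.3%, beside 8.86% of all genes) and no rises (0) among 24 tested genes, and 2 of these falls were of genes that passed the filter through F_G alone. Podel.14G169700 had 11.7, 9.84 and 12.0 FPKM in P against 52.9, 50.3 and 47.4 FPKM in F_G (−2.08 ± 0.09), and Podel.02G015800 fell as well (−1.09 ± 0.08). Brassinosteroid biosynthesis had 4 falls (40%) and no rises (0) among 10 tested, among them Podel.06G155000 (−1.25 ± 0.11) and *PdeF3'H2*. Here too, 1 of the falls was of a gene that passed the filter through F_G alone.

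The surface and growth lists held few tested genes, with no rises (0) called. Cutin, suberine and wax biosynthesis, whose products form the cuticle of the epidermis, had 3 falls (25%, beside 8.86% of all genes) among 12 tested genes, and 2 of these falls were of genes that passed the filter through F_G alone. The third, Podel.02G044500, had 16.6, 16.01 and 16.02 FPKM in P against 70.7, 71.2 and 60.3 FPKM in F_G (−1.99 ± 0.08). Fatty acid elongation had 2 falls (14.3%) among 14 tested genes, or 1 without P replicate 1 or P replicate 2. DNA replication, active in dividing cells, had 1 fall (11.1%) among 9 tested genes, or 2 without P replicate 3 or F_G replicate 1, while 16 of the 25 listed genes did not pass the filter. This 1 fall was of a gene that passed the filter through F_G alone, so that the filter set its direction. The summed FPKM of the DNA replication list was 133 to 143 in P and 157 to 181 in F_G, and that of the cutin list 136 to 152 in P and 188 to 215 in F_G. These are bulk leaf libraries, in which fewer cells of a type and less RNA per cell cannot be told apart.

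The photosynthesis list, which holds subunits of the photosystems and of ATP synthase, had 8 falls (66.7%) and 2 rises (16.7%) among 12 tested genes, against 8.86% and 3.74% of all genes. Of these calls 2 falls and 1 rise were of genes that passed the filter through 1 group alone. The list was drawn wholly from genes that the study had called in F_P vs. F_G. The same F_G libraries thus chose it, and the direction of its members is not independent evidence. Of its 17 genes 11 lie in a stretch of 478 kb on chromosome 13 (positions 15373292 to 15851038 of the deposited annotation, which names no build itself and whose identifiers could not be matched to the assembly given in the study's methods), and the 7 of these that were tested fell, both of the falls through F_G alone among them. Of these, Podel.13G173700 had 12.7, 14.1 and 13.1 FPKM in P against 31.5, 69.3 and 39.4 FPKM in F_G (−1.66 ± 0.25), and Podel.13G173800 fell by 1.15 (SE 0.13). Outside the stretch 5 were tested, with 2 rises and 1 fall. Podel.08G057200 had 28.1, 26.1 and 34.7 FPKM in P against 5.82, 12.7 and 7.65 FPKM in F_G (1.71 ± 0.24). The stretch was found and its bounds were set after the values had been seen, so that it is given with no test. It holds 272 annotated genes, of which 26 passed the filter, 11 of them through F_G alone, so that a fall of these 11 was set by the filter. Of the other 15 genes, 14 were called lower and none (0) higher in P. Among all tested genes that did not pass through 1 group alone, these shares were 6.55% and 3.36%. Over all 26 genes of the stretch 25 were called lower, and the log2 fold changes of the 26 lay between −4.68 and −1.15. Of the 26 genes 73.1% have a single exon, against 13.8% of all genes tested, and their median exon length was 291 bases, against 1601.

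In sum over these 26 genes, the P libraries had 122, 168.5 and 102 FPKM and the F_G libraries 655, 885.5 and 1532 FPKM. Every F_G library was above every P library, with F_G replicate 3 the highest. This replicate also had the smallest share of mapped reads in the series, and whether that bears on the sums was not tested. For single genes the highest F_G library was 3.07 times the lowest in the median, against 1.25 times over all tested genes expressed at 1 FPKM or more in every F_G library. The F_P libraries had 129 to 161 FPKM and the G libraries 548, 700.4 and 269 FPKM, so that both green groups were higher and more variable than both purple groups. In F_P vs. G, 10 of 22 tested genes of the stretch were called lower and none (0) higher, against 20% and 13.5% of all genes tested in that pair. The number called lower in P stayed between 24 and 26 when any of the 6 libraries was left out. Whether gene length or exon number bears on these values was not tested.

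**Figure D5:**
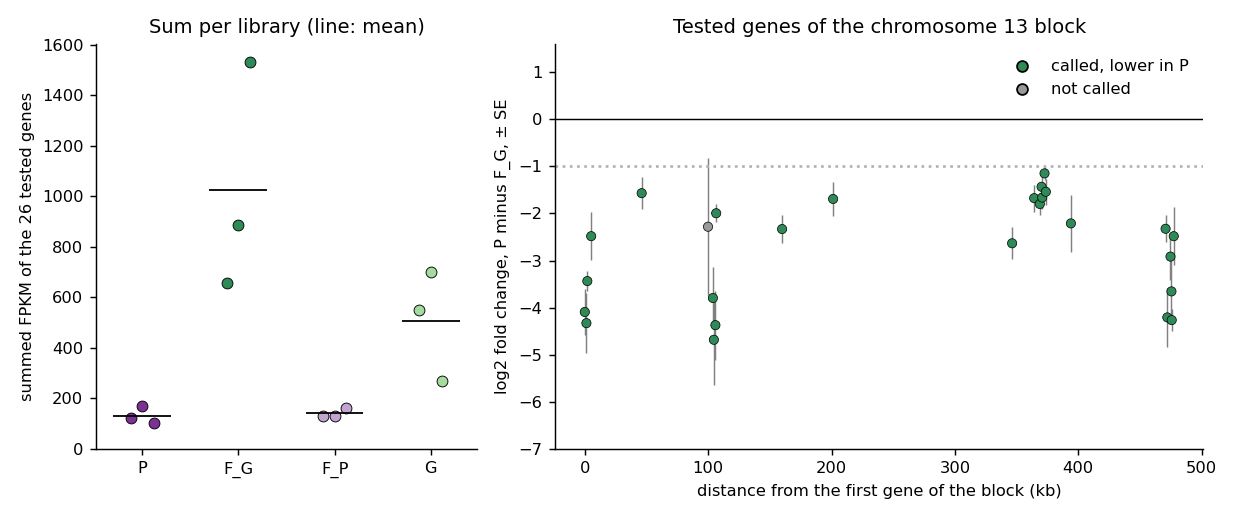
Left, summed FPKM of the 26 tested genes of the chromosome 13 stretch in each library, with the mean as a line, for P, F_G, F_P and G. Right, log2 fold change (P minus F_G, ± SE) of each gene against its distance from the first gene in kb; green points were called lower in P and the gray point was not called.

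The largest changes over all genes were taken from called genes that averaged 10 FPKM or more and whose groups did not overlap. Podel.08G182600, for which the tables used here give no name, had 272, 192 and 249.9 FPKM in P, against 0.234, 0.937 and 0.467 FPKM in F_G (7.28 ± 0.19, adjusted p = 4.59e-07). Podel.06G216500, placed by the study under protein processing in the endoplasmic reticulum, had 118, 174 and 171 FPKM in P, against 0.157, 0.362 and 1.10 FPKM in F_G (6.68 ± 0.24). Both also rose in F_P vs. G, by 3.68 and 3.17, less than in P vs. F_G (differences 3.60 and 3.51 on the log2 scale). Podel.T167600, on a scaffold outside the chromosomes, had 0, 0.271 and 0.0844 FPKM in P, against 22.3, 24.8 and 25.4 FPKM in F_G (−4.50 ± 0.14). Podel.13G158000, a gene of 180 bases within the chromosome 13 stretch, had 0.317, 0 and 0 FPKM in P, against 4.71, 26.5 and 142 FPKM in F_G (−4.68 ± 0.96). The F_G libraries spread widely for this gene, and its log2 fold change ran from −5.84 to −3.52 when single libraries were left out. Podel.08G182600 passed the filter through P alone and Podel.T167600 and Podel.13G158000 through F_G alone, so that the filter set the direction of these differences.

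Few genes were present in one group and at 0 in the other. At 0 FPKM in every library of one group and at least 5 FPKM in every library of the other, 1 gene was found in P and 3 in F_G, together 4, or up to 7 when single libraries were left out. Podel.12G118400 had 8.70, 9.80 and 7.98 FPKM in P and 0 in F_G, at least 34.5-fold higher when 3 fragments per library are taken as the floor. The neighbours Podel.18G090000 and Podel.18G090200, 14.3 kb apart on chromosome 18, had 18.2, 15.01 and 21.1 FPKM and 19, 16.5 and 24.6 FPKM in F_G and 0 in P, so that P was at least 96.6-fold and 129-fold lower. In the other pair F_P was at 0 in all libraries for the first and at most 0.133 FPKM for the second, whereas G had 72.2, 68.2 and 48.7 FPKM and 101, 130 and 141 FPKM. The third gene, Podel.13G152200, lies in the chromosome 13 stretch, with 0 FPKM in P and 10.1, 12.9 and 7.24 FPKM in F_G.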

How the data were processed

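Leaf mRNA was sequenced by the authors (paired-end), mapped to a *P. deltoides* genome with HISAT2 and assembled with StringTie (versions not given in the sources used here), and deposited as FPKM per gene and library. FPKM multiplied by exon length gave whole fragments (within 0.02) for 100% of the values checked, from which the depth was recovered. A gene entered the test if 3 or more of the 6 libraries reached 1 FPKM, a set that was kept when a library was left out. Values were transformed as log2 after adding a pseudocount of 1 and fitted in R 4.3.3 by limma 3.58.1 with an intensity trend, and p-values were adjusted over all genes tested. The library kit as described does not mark strand, so reads of overlapping genes on opposite strands cannot be told apart. The files hold 46170 genes, 1317 of them outside the deposited annotation. No identifier (0) was found among the 31722 entries of the RefSeq table, so names and pathways are the study's. Members and lists were chosen with earlier results of these data known. Named genes are the called structural, MYB and bHLH genes, 2 rises and 2 falls at most per pathway list (mean of at least 10 FPKM), and the 2 largest rises and falls among all genes without overlap. Podel.04G093000, uncalled genes, the genes detected in 1 group, and the genes named in the chromosome 16 run were added after their values were seen. The procedure was tested on simulated data. Alternatives were other scalings, no filter, a pseudocount of 0.1, a replicate block, each library left out, all 12 libraries in 1 fit, voom on recovered fragments, no minimum fold change, and a test against a fold change of 1 (log2).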

Additional observations from a re-analysis of the deposited data

Results flagged for a closer look

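The change between P and F_G differed from that between F_P and G, by the test of the difference in the fit of all 12 libraries, for 54 of the structural, MYB, bHLH, pathway and other genes listed or named in the comparison, called in P vs. F_G or not. The value is (P minus F_G) minus (F_P minus G) on log2(FPKM + 1), and the cultivars differ within both pairs. In 42 of them the change was larger in F_P vs. G, among them *PdeCHS5*, *PdeUFGT2* and *PdeUFGT3*, which were not tested in P vs. F_G. No group has more than 3 libraries, so single libraries were not tested as outliers.

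Among the structural genes the difference was 3.37 for *PdeFLS2*, 3.18 for *PdeUFGT6*, 2.74 for *PdeF3H1*, 2.19 for *PdeUFGT2*, 2.15 for *PdeANS4* and 1.82 for *PdeCHS5*. Smaller positive differences were 1.57 for *PdeF3'5'H1*, 1.45 for *PdeUFGT8*, 1.37 for *PdeANS6*, 1.31 for *PdeF3H4* and 1.27 for *PdeUFGT10*. It was negative, at −1.35 for *PdeF3H3*, −1.05 for *PdeFLS3*, −1.27 for *PdeUFGT5*, −1.47 for *PdeUFGT9*, −2.53 for *PdeUFGT4*, −4.02 for *PdeUFGT3*, −4.21 for *PdeFLS4* and −4.19 for *PdeUFGT11*. *PdeUFGT11* was called in opposite directions in the pairs.

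Among the MYB genes the difference was −2.004 for *PdeMYB1* (Podel.04G021100), −3.34 for Podel.02G040700, −2.26 for Podel.08G221200, 1.601 for Podel.02G205100, 1.40 for Podel.06G106200, 3.23 for Podel.06G163300, 2.87 for Podel.07G028800, 3.65 for Podel.09G121500 and 1.43 for Podel.17G037900. Among the bHLH genes it was 2.16 for Podel.01G333900, 2.101 for Podel.02G199200, 3.49 for Podel.03G099000, 3.39 for Podel.04G160100, 2.02 for Podel.07G028600, 2.29 for Podel.09G122300, −1.18 for Podel.15G110700 and −1.46 for Podel.01G109500. Podel.02G040700 fell in P vs. F_G and rose in F_P vs. G.

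In the pathway lists the difference was 6.82 for Podel.01G371500 of nitrogen metabolism and 6.32 for Podel.06G155000 of brassinosteroid biosynthesis, both with a deeper fall in F_P vs. G. The nitrogen genes Podel.02G096300 and Podel.13G061800 differed by −4.00 and −2.06. The flavonoid genes Podel.19G001400 and Podel.04G031200 differed by 3.23 and 1.54, and Podel.08G046700 of phenylalanine metabolism by −2.50. Podel.06G052600 of chlorophyll metabolism differed by 1.28, Podel.19G097900 of carotenoid biosynthesis by 1.11, Podel.02G015800 of steroid biosynthesis by 1.14 and Podel.13G173700 of the photosynthesis list by −1.02.

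Of the genes with the largest changes, Podel.08G182600 differed by 3.60, Podel.06G216500 by 3.51, Podel.T167600 by 1.29 and Podel.13G158000 by −4.05 (SE 1.55). Of the genes at 0 in one group, Podel.12G118400 differed by 1.06, Podel.18G090000 by 1.74 and Podel.18G090200 by 2.52.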

How the results depend on the processing

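The numbers of called genes over all genes, the structural genes and the pathway lists together stayed within 1.5 times of those reported under another scaling, no filter, a pseudocount of 0.1, all 12 libraries in one fit, voom on recovered fragments and each library left out, except for the values given here. In single pathway lists counts moved by 1 gene at most across a factor of 1.5, apart from the antenna falls under library totals (1). Without a minimum fold change 11969 genes were called, 5729 higher and 6240 lower in P, and among the structural genes 25, 13 higher and 12 lower. Tested against a log2 fold change of 1 (treat of limma), 834 genes were called, 188 higher and 646 lower, and 6 structural genes, 4 higher and 2 lower. With a pseudocount of 0.1, 117 genes were called higher in P and lower in F_P vs. G. With a minimum of 1 FPKM, 38 genes were found in one group only, 16 in P and 22 in F_G. With libraries left out in turn these counts were 4 to 7, 1 to 3 (3 without P replicate 2, 2 without F_G replicate 3) and 3 to 5 (5 without F_G replicate 2). The same left-out libraries gave 3187 to 3329 called genes in P vs. F_G and 13 to 15 called structural genes.

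Replicate numbers did not pair the samples, since same-numbered P and F_G libraries deviated from their group means with r of −0.086 to 0.018. With the replicate number as a block 3267 genes were called, 974 higher and 2293 lower in P, and none (0) of the 87 genes run one by one changed its call. None (0) of the calls among these 87 genes turned direction under any alternative run. Genes at a log2 fold change near 1 lost or gained their call: under library totals Podel.11G123800, Podel.13G173800, Podel.02G015800 and Podel.02G205100 lost it, and *PdeCHS4* and Podel.08G221200 gained it. Under a pseudocount of 0.1 and under voom *PdeF3H4*, *PdeFLS3* and *PdeFLS4* gained it. Low genes are limited by depth, since 1 fragment per kb was 0.0556 to 0.0577 FPKM in P and 0.0603 to 0.0653 FPKM in F_G.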

Other observations

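Calls were spread over all chromosomes, with 2.82% to 4.25% of the tested genes higher and 7.70% to 10.5% lower in P on each of the 19 chromosomes. In runs of 20 neighbouring tested genes, the most falls were 20 of 20, in the stretch of chromosome 13 described above, where 7 of the 20 genes had passed the filter on low values through F_G alone, so that their direction was set by the filter. The next was a run on chromosome 16 (positions 560541 to 775686, Podel.16G011300 to Podel.16G013900), in which 13 of 20 genes were lower in P, 4 of them having passed through F_G alone. Within it, Podel.16G012200 had a mean of 28.2 FPKM in P, 90.3 in F_G, 40.6 in F_P and 0.851 in G, and Podel.16G011700 had 1.13 FPKM in P, 18.8 in F_G, 2.32 in F_P and 1.03 in G, so that F_G was the highest group for both. Both genes were picked after their values had been seen, and the other genes of the run are not described. On the other chromosomes no run held more than 10 falls. The most rises in a run were 7 of 20, on chromosome 17. These runs were looked for after the values had been seen and have no test.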
